A study of Homo sapiens with 36 samples.

Results

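The genes described here are 10 components of the cellular response to foreign RNA, chosen by name: the endosomal receptor TLR3 and its adaptor TICAM1, the cytosolic receptors RIGI, IFIH1 and DHX58 and their adaptor MAVS, the double-stranded RNA-activated kinase EIF2AK2, the nucleic acid receptor ZBP1, and the shared kinase TBK1 with its substrate IRF3. All 10 were found among the 66366 named genes of the files. RNA of 4 human lines of non-small cell lung cancer was sequenced, with 3 treatments per line and 3 libraries per group, 36 in all. EGFR bears L858R in H3255, both L858R and T790M in H1975, and an exon 19 deletion with T790M in H820, while A549 has the wild-type gene. Cells received for 24 h either MinE07, an RNA aptamer (a folded RNA that binds a protein) directed at EGFR, an extended version of the control aptamer C36, or the vehicle, phosphate-buffered saline with magnesium. Both aptamers were given at 3 µM. Treatment medium with reduced serum was DMEM for A549 and RPMI for H3255, H1975 and H820, so that medium, EGFR genotype and line of origin cannot be told apart. Each genotype is represented by a single line.

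Cells recognise foreign RNA in separate compartments. TLR3 binds double-stranded RNA inside endosomes and signals through TICAM1 (TRIF). RIGI (RIG-I) and IFIH1 (MDA5) bind RNA in the cytosol, RIGI preferring ends that carry phosphate groups and IFIH1 preferring long duplexes, and both signal through MAVS on mitochondria, while DHX58 (LGP2) lacks signalling domains and modulates them. Both routes activate TBK1, which phosphorylates IRF3 so that it enters the nucleus and drives interferon genes. EIF2AK2 (PKR) phosphorylates the initiation factor eIF2 and slows translation, and ZBP1 binds nucleic acids in the Z conformation and can start cell death through RIPK3. Several of these genes are themselves induced by interferon.

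Values are FPKM, fragments scaled for transcript length and library size, which may be compared between genes. Between 13236 and 14267 genes exceeded 1 FPKM in a library, and library depth, estimated from the spacing of low values, lay between 0.590 and 1.385 times that of the median library. No read counts were available, so counting error is not given, and a value of 0 is described as listed at 0. Epithelial markers (EPCAM, CDH1, KRT8, KRT18, KRT19, NKX2-1) averaged at least 1 FPKM in 6 of 6 in H3255, H1975 and H820 and in 5 of 6 in A549, where NKX2-1 averaged 0.021 FPKM with vehicle, and their summed level lay between 1236 and 5637 FPKM per library. Of 5 leukocyte markers, CD14 alone reached 1 FPKM, in H1975, H820 and A549, and the summed level of the list was at most 2.41 FPKM. The 3 endothelial and 4 plasmacytoid dendritic cell markers summed to at most 0.814 and 0.144 FPKM, and CLEC4C of the latter was listed at 0 in all 36 libraries. Of 4 fibroblast markers, 3 exceeded 1 FPKM in H1975, where their sum was 11.98 to 17.1 FPKM, and 1 did in H3255. The part of these transcripts in any result was not tested.

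The stretches before the start sites of RIGI, IFIH1, EIF2AK2 and TLR3 are shown. Among members with a test, these differed most between lines, and the first 3 moved together in H3255. RefSeq's promoter table (GRCh38.p14) held 7 of the 10 genes, and DHX58, ZBP1 and IRF3 were not in it. Each sequence runs from 220 bases before the annotated start to 30 bases after it, 5′ to 3′ on the gene's strand: TLR3 at chr4:186068936-186069185 on the plus strand, RIGI at chr9:32526167-32526416, IFIH1 at chr2:162318655-162318904 and EIF2AK2 at chr2:37156951-37157200, all 3 on the minus strand. Capitals mark matches, on either strand, to the core of the interferon-stimulated response element, GAAANNGAAA, or to its short-gap form, GAAANGAAA.
TLR3: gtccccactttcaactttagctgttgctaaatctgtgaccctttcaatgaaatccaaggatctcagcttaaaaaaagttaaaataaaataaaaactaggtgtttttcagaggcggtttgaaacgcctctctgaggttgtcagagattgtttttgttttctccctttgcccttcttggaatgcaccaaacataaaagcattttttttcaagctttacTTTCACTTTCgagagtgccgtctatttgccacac
RIGI: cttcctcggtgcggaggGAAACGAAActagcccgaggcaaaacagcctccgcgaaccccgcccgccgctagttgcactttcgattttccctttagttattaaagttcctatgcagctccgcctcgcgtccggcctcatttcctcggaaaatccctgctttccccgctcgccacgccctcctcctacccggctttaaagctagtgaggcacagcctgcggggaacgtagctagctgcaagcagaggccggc
IFIH1: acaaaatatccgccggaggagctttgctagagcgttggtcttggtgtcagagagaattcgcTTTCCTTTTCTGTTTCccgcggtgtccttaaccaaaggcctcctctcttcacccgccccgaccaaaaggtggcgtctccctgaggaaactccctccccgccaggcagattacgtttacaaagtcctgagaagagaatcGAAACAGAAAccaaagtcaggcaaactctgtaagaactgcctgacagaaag
EIF2AK2: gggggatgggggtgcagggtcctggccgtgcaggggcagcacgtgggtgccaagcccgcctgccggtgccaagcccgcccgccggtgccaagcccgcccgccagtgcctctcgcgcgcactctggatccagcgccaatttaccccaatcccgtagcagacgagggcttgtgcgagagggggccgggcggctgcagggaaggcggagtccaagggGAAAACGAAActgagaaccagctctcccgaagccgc
In windows of 300 bases (250 before and 50 after the start), the core GAAANNGAAA was present in 3 of the 7 promoters, with 3 matches in IFIH1, of which a pair overlap, 1 in EIF2AK2 and 1 in TLR3. It was present in 3.57% of all 35116 promoters. The short-gap form, searched for after the first was seen to be missing from RIGI, matched once, in RIGI, and in 3.12% of all promoters. The NF-kB letters, GGG and TTTCC with any 2 bases between them, matched in RIGI, IFIH1 and TICAM1 (1.91% of all promoters), and the STAT letters TTCNNNGAA matched in TLR3 alone (7.66%). In the MAVS and TBK1 windows none of these letter patterns was found. A match describes letters only.

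In vehicle-treated cells the receptors and EIF2AK2 separated the lines more than the adaptors, TBK1 and IRF3 did. A549 had the highest level of TLR3, RIGI, IFIH1 and EIF2AK2, with means 4.51-fold (EIF2AK2) to 12.3-fold (IFIH1) above the next line. It was also highest in TBK1 (1.43-fold above the next line), IRF3 (1.17-fold) and ZBP1. MAVS, TICAM1 and DHX58 were instead highest in H1975. TBK1 and IRF3 varied by 1.80-fold and 2.27-fold between their highest and lowest lines. Of 9 members that could be tested (mean of at least 1 FPKM over the 12 vehicle libraries), 7 to 9 were called in each of the 6 pairs of lines by limma at an adjusted p under 0.05. For H3255 against H1975, H820 and A549 the counts were 7, 7 and 9, beside 84.3%, 84.7% and 85.7% of all 14523 tested genes. For H1975 against H820 and A549 they were 7 and 9, beside 82.1% and 82.8%, and for H820 against A549 8, beside 83.8%. The members' counts are near these shares, so sizes rather than calls are given for them.

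**Figure D1:**
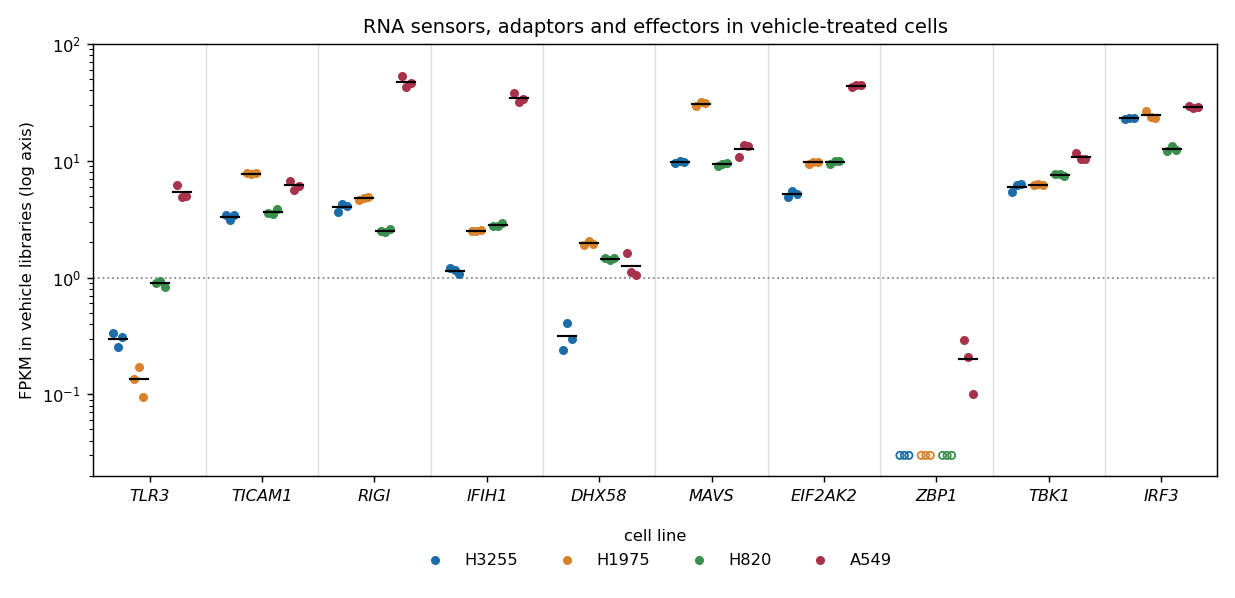
FPKM of the 10 genes in the 12 vehicle libraries on a log axis, with points for single libraries, black bars for the mean of 3 libraries, open circles at the bottom for values listed at 0 and a dotted line at 1 FPKM. The A549 libraries lie above those of every other line for TLR3, RIGI, IFIH1 and EIF2AK2, and by less for TBK1 and IRF3. ZBP1 is above 0 only in A549.

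TLR3 (chromosome 4, 186069152 to 186088069, plus strand of GRCh38 in the GENCODE annotation) had 6.17, 4.88 and 5.01 FPKM in the A549 vehicle libraries. Its mean was 0.890 ± 0.048 in H820, 0.299 ± 0.041 in H3255 and 0.135 ± 0.038 FPKM in H1975 (SD, n = 3). No libraries of different lines overlapped, and all 6 pairs were called. TLR3 entered this fit only through A549, however. Each of the 6 pairs thus holds at least 1 line under 1 FPKM, where precision is not known, and no p is given for them. On the log2(FPKM + 0.5) scale H1975 minus A549 was -3.20 ± 0.08 (SE), and H820, the next line, minus A549 was -2.07 ± 0.08. This scale understates differences of low values. TICAM1 (chromosome 19, 4815932 to 4831704, minus strand), the adaptor of TLR3, had another order: 7.77 ± 0.09 FPKM in H1975, 6.15 ± 0.51 in A549, 3.67 ± 0.20 in H820 and 3.32 ± 0.20 in H3255. H1975 held the least TLR3 and the most TICAM1. The last 2 lines of that order were not called as different (adjusted p = 0.068).

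RIGI (chromosome 9, 32455705 to 32526324, minus strand) had 53.4, 43.1 and 46.1 FPKM in A549. The H1975 libraries had 4.63, 4.82 and 4.88 FPKM, the H3255 libraries 3.64, 4.24 and 4.12, and the H820 libraries 2.49, 2.48 and 2.62. A549 was 9.95-fold above H1975 and 18.8-fold above H820 in mean FPKM, and the log2 differences from A549 were -3.18 ± 0.07 (SE, adjusted p = 1.3e-13) for H1975 and -3.98 ± 0.07 (adjusted p = 1.5e-14) for H820. IFIH1 (chromosome 2, 162267079 to 162318703, minus strand) had 38.3, 31.6 and 33.8 FPKM in A549, against 2.81 ± 0.10 in H820, 2.52 ± 0.04 in H1975 and 1.148 ± 0.064 in H3255. The log2 difference of H3255 minus A549, -4.41 ± 0.06 (SE, adjusted p = 9.4e-16), was the largest of any member and pair on this scale, while in mean FPKM the difference in TLR3 between A549 and H1975 was larger (39.8-fold, against 30.1-fold for IFIH1). H820 and H1975 were not called as different in IFIH1 (adjusted p = 0.072).

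DHX58 (chromosome 17, 42101404 to 42112733, minus strand), the receptor without signalling domains, did not follow RIGI and IFIH1. Its level was 1.97 ± 0.09 FPKM in H1975, 1.45 ± 0.04 in H820, 1.27 ± 0.31 in A549 and 0.314 ± 0.083 in H3255. The 3 A549 libraries, at 1.63, 1.11 and 1.06 FPKM, overlapped those of H820, and that pair was not called (adjusted p = 0.18). MAVS (chromosome 20, 3846799 to 3876123, plus strand), the adaptor of RIGI and IFIH1, stood at 29.7, 31.6 and 31.3 FPKM in H1975, above every library of the other lines. A549 had 12.6 ± 1.6, H3255 9.79 ± 0.12 and H820 9.33 ± 0.34 FPKM of MAVS. The log2 difference of H1975 minus H820 was 1.67 ± 0.07 (adjusted p = 1.0e-10). H3255 and H820 were not called as different (adjusted p = 0.38).

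EIF2AK2 (chromosome 2, 37099210 to 37157065, minus strand) had 42.6, 44.5 and 44.4 FPKM in A549. It had 9.72 ± 0.29 FPKM in H820, 9.66 ± 0.18 in H1975 and 5.199 ± 0.271 in H3255. The log2 difference of H3255 minus A549 was -2.96 ± 0.04 (SE, adjusted p = 9.2e-16), and H820 and H1975 were not called as different (adjusted p = 0.87). ZBP1 (chromosome 20, 57603846 to 57620576, minus strand) was listed at 0 in every vehicle library of H3255, H1975 and H820 and had 0.293, 0.207 and 0.101 FPKM in A549. Across treatments it was also listed at 0 in all 9 libraries of H3255 and of H820, and was above 0 in 2 of 9 libraries of H1975, at 0.011 FPKM each.

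TBK1 (chromosome 12, 64451880 to 64502108, plus strand) had 10.8 ± 0.7 FPKM in A549, 7.55 ± 0.15 in H820, 6.22 ± 0.09 in H1975 and 5.98 ± 0.46 in H3255. IRF3 (chromosome 19, 49659569 to 49665875, minus strand) had 28.7 ± 0.6 FPKM in A549, 24.6 ± 1.9 in H1975, 23.2 ± 0.2 in H3255 and 12.7 ± 0.7 in H820. IRF3 was the most abundant member in H3255 and H820, MAVS in H1975 and RIGI in A549. H3255 and H1975 were not called as different in TBK1 (adjusted p = 0.36) or IRF3 (adjusted p = 0.15). IRF3 shares 734 bases with BCL2L12, EIF2AK2 shares 35 with GPATCH11 and 775 with the pseudogene AC007899.1, and TBK1 shares 1022 with AC135279.3, all on the opposite strand. Whether counting used the strand is not given in the sources used here, so reads from these overlaps cannot be told apart.

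The order of the lines was kept for 8 of 10 members when the libraries were rescaled by medians of ratios. That rescaling moved the median difference of all genes between H1975 and H3255, H820 and A549 by 0.12, -0.15 and -0.16 (as H3255 minus H1975, H1975 minus H820 and H1975 minus A549). The small difference between H3255 and H1975 in RIGI (H3255 minus H1975 was -0.23 ± 0.07 as deposited, adjusted p = 0.0087) was -0.10 after rescaling and no longer called (adjusted p = 0.16). The excess of DHX58 in H1975 over H820, 0.34 ± 0.10 as deposited, was also lost, at 0.20 (adjusted p = 0.085), while H1975 was then called lower than H820 in IFIH1 (-0.28, adjusted p = 0.0010) and EIF2AK2 (-0.17, adjusted p = 0.0011). Under it H3255 and H820 also differed in TICAM1 (adjusted p = 0.030).

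The other genes of these pathways were described through lists. Among 10 genes of endosomal RNA recognition and handling, 5 or 6 per line averaged at least 1 FPKM in vehicle. TLR7 and TLR8, the endosomal receptors for single-stranded RNA, were at or near 0 in all lines (vehicle means of at most 0.0041 and 0.0010 FPKM), while the highest member was PLD3, an endolysosomal exonuclease, in H3255 (54.6 FPKM), CNPY3, a chaperone of these receptors, in H1975 and H820 (23.0 and 35.0), and UNC93B1, which carries them to endosomes, in A549 (54.2). Of 12 cofactors and regulators of the RIG-I-like receptors, 11 or 12 exceeded 1 FPKM in each line. PPP1CA, a catalytic subunit of a phosphatase that acts on RIGI and IFIH1, was highest in every line at 79.3 to 238 FPKM. Of 15 kinases and adaptors leading to IRF3 and NF-kB, 13 to 15 exceeded 1 FPKM. The highest was RELA in H3255, H1975 and H820 (16.7 to 26.8 FPKM) and IRF7, an interferon-inducible relative of IRF3, in A549 (42.4 FPKM).

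Lists of interferon-inducible effectors differed more. Of the 6 genes of the oligoadenylate synthetase list, 3 exceeded 1 FPKM in H3255 and all 6 did in each of the other lines, with a median of 65.9 FPKM in A549 against 1.12 to 5.43 elsewhere. OAS1, which makes oligoadenylates on binding double-stranded RNA, had 284 ± 3 FPKM in A549 and 0.937 ± 0.213 in H3255. Of 10 other RNA-binding sensors and effectors, 5 exceeded 1 FPKM in H3255 and 9 or 10 in the other lines. The highest was the helicase DDX3X in H3255, H1975 and H820 (50.7 to 75.2 FPKM) and IFIT1, which binds foreign RNA ends, in A549 (259 FPKM), whereas IFIT1 was the lowest of that list in H3255 (0.117 FPKM). RIPK3, the kinase that acts below ZBP1 in cell death, was listed at 0 in the A549 vehicle libraries and was under 1 FPKM in every line.

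C36 was compared with vehicle to show what an RNA aptamer not directed at EGFR does to these genes. In H3255 and A549, receptor transcripts rose by 0.27 to 0.44 on the log2 scale where they were called, and in H1975 and H820 no member was called. In H3255, IFIH1 was the 1 member called of 7 tested, against 0.305% of all 13429 tested genes. In A549, DHX58, IFIH1 and TICAM1 were called of 9 tested, all higher, against 3.62% of 13425 genes called higher. The median log2 change of the tested members was 0.09 in H3255 and 0.22 in A549, beside 0.02 and 0.01 over all tested genes.

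In H3255, IFIH1 had 1.84, 1.55 and 1.63 FPKM with C36 and 1.2, 1.16 and 1.08 with vehicle, and the groups did not overlap. It was higher with C36 by 0.40 ± 0.06 (SE, n = 3 per group) on the log2 scale (adjusted p = 0.044). RIGI had 5.48, 4.99 and 4.97 FPKM with C36 and 3.64, 4.24 and 4.12 with vehicle. EIF2AK2 had 6.61, 6.43 and 5.92 against 4.92, 5.46 and 5.22 FPKM. Neither gene's groups overlapped, but the differences of 0.33 ± 0.06 for RIGI (adjusted p = 0.051) and 0.26 ± 0.06 for EIF2AK2 (adjusted p = 0.084) were not called. Among the tested members 5 of 7 were higher with C36 without overlap (RIGI, IFIH1, EIF2AK2, MAVS and IRF3), where 17.1% of all tested genes were. The call of IFIH1 was kept without MinE07 replicate 1, which enters through the spread (adjusted p = 0.047), and lost in each of the 8 fits without another library (adjusted p of 0.053 to 0.14). A fit of all 36 libraries called 3 members, RIGI (adjusted p = 0.0029), IFIH1 and EIF2AK2 (adjusted p = 0.0020). It called 369 genes in all, where the fit of the line called 41.

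In A549, DHX58 had 1.80, 1.86 and 1.96 FPKM with C36 against 1.63, 1.11 and 1.06 with vehicle, a log2 difference of 0.44 ± 0.11 (adjusted p = 0.043). IFIH1 had 39.4, 42.2 and 43.6 FPKM against 38.3, 31.6 and 33.8, a difference of 0.27 ± 0.07 (adjusted p = 0.043). TICAM1 had 7.29, 7.20 and 7.26 FPKM against 6.69, 5.67 and 6.09, a difference of 0.22 ± 0.06 (adjusted p = 0.048). In all 3 genes the C36 libraries lay above the vehicle libraries, and vehicle replicate 1 was the vehicle library nearest to them. TLR3 (0.27 ± 0.07, adjusted p = 0.061) and RIGI (0.24 ± 0.07, adjusted p = 0.088) were also higher without overlap but not called, and 6 of 9 tested members were higher without overlap, where 17.4% of all tested genes were. EIF2AK2, at 48.6, 46.8 and 46.1 FPKM against 42.6, 44.5 and 44.4, was the last of the 6, with a difference of 0.10 ± 0.04 (adjusted p = 0.17).

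Vehicle replicate 1 of A549 stood above the other vehicle libraries in interferon transcripts too, with 12.9 FPKM of IFNL1 against 9.71 and 9.02, and 7.62 of CXCL10 against 4.05 and 3.85. The same library was the lowest of the vehicle group in EIF2AK2 (42.6 FPKM) and in MAVS (10.8 against 13.7 and 13.3 FPKM). Without it, 5 members were called for C36 minus vehicle, beside 1065 genes in all in either direction. Among the 5 were TLR3 (0.37, adjusted p = 0.0019) and RIGI (0.32, adjusted p = 0.0088). Without any 1 of the other 8 A549 libraries, 0 members were called by limma, and with a replicate block the count was also 0. The part of that library's own state in these changes was not tested.

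In H1975 the C36 and vehicle libraries of the tested members differed little. RIGI had 4.71, 4.45 and 4.64 FPKM with C36 against 4.63, 4.82 and 4.88, a change of -0.05 (95% confidence interval -0.15 to 0.05), and IFIH1 changed by -0.06 (-0.18 to 0.06). None of 8 tested members was called by limma, against 0.233% of all 14183 tested genes. None had an unadjusted p under 0.05, where 2032 of all tested genes did, and the 8 intervals together ran from -0.18 to 0.27. In H820, none of 8 was called, against 2.85% of all 13753 tested genes. TICAM1 alone had an unadjusted p under 0.05 (0.14 ± 0.05, adjusted p = 0.17), where 2527 of all tested genes did. RIGI in H820 had 2.27, 2.03 and 2.48 FPKM with C36 against 2.49, 2.48 and 2.62, a change of -0.14 (-0.28 to 0.01).

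**Figure D2:**
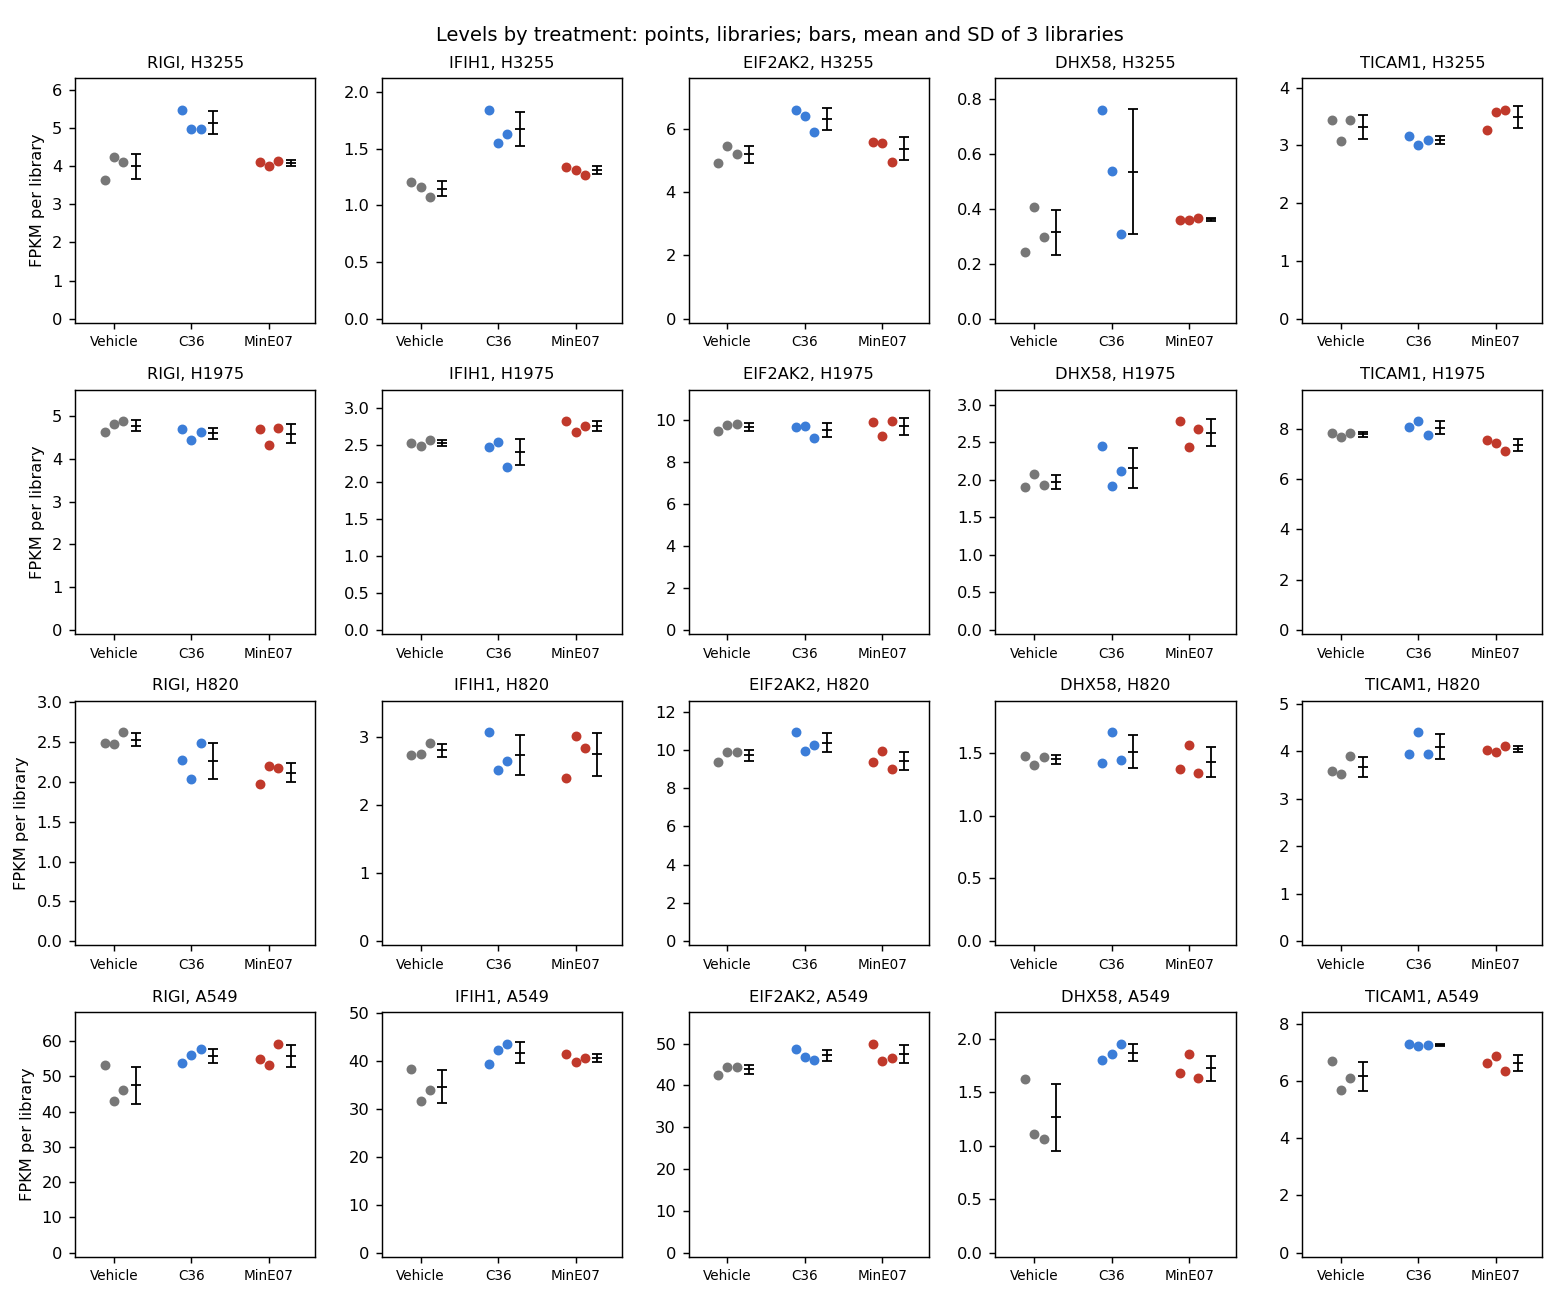
FPKM per library of RIGI, IFIH1, EIF2AK2, DHX58 and TICAM1 (columns) in H3255, H1975, H820 and A549 (rows) by treatment, with points for libraries and bars for mean and SD of 3. In H3255 the 3 C36 libraries of RIGI (4.97 to 5.48 FPKM) lie above the vehicle and MinE07 libraries. In A549 the first vehicle library of RIGI (53.4 FPKM) lies nearest the aptamer libraries, while that of EIF2AK2 (42.6 FPKM) lies farthest from them.

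MinE07 was compared with vehicle for the effect of the EGFR aptamer as given. Called members were few: MAVS in H3255, DHX58 in H1975, and none in H820 or A549. This comparison shares its vehicle libraries with the one above, so the values stand side by side only. In H3255 1 of 7 members was called against 38.6% of all tested genes, in H1975 1 of 8 against 23.7%, in H820 0 of 8 against 3.02%, and in A549 0 of 9 against 0.216%. The members' share was under that of all genes in each line. With 7 to 9 members tested, no result is read from these counts. At an unadjusted p under 0.05, 2 of 8 members passed in H820 (RIGI, -0.21 ± 0.06, and TICAM1, 0.13 ± 0.05), beside 2570 of all 13753 tested genes. In A549 5 of 9 passed, beside 1865 of 13425 genes.

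MAVS in H3255 had 11, 11.6 and 10.8 FPKM with MinE07 against 9.66, 9.87 and 9.85 with vehicle, higher by 0.18 ± 0.03 (adjusted p = 0.0028), and it was called without each single library. RIGI, EIF2AK2 and IFIH1 were higher with C36 than with vehicle in H3255 without overlap, and of these IFIH1 alone was called. With MinE07, RIGI differed from vehicle by 0.03 (95% confidence interval -0.10 to 0.16) and EIF2AK2 by 0.04 (-0.09 to 0.17). The MinE07 and vehicle libraries of both genes overlapped. IFIH1 differed by 0.14 (-0.01 to 0.28) and was not called (adjusted p = 0.12). Its MinE07 libraries nevertheless all lay above its vehicle libraries. DHX58 in H1975 had 2.78, 2.43 and 2.67 FPKM with MinE07 against 1.91, 2.07 and 1.93 with vehicle, without overlap, and rose by 0.34 ± 0.08 (adjusted p = 0.011). It stayed called without each single library, and without vehicle replicate 1 the count of members was 2, beside 3438 genes in all. The 3 tested fibroblast markers were also called higher with MinE07 in H1975, with medians of 0.34 against vehicle and 0.38 against C36, and their part in the change of DHX58 was not tested. In A549 all 9 tested members were higher with MinE07, with a median change of 0.11, led by DHX58 (0.35 ± 0.11, adjusted p = 0.20), RIGI (0.24 ± 0.07, adjusted p = 0.20) and IFIH1 (0.23 ± 0.07, adjusted p = 0.17). Without vehicle replicate 1, 4 of them were called, beside 368 genes in all (29 with that library kept). They were TLR3 (0.32, adjusted p = 0.0095), RIGI (0.32, adjusted p = 0.019), IFIH1 (0.31, adjusted p = 0.018) and DHX58 (0.49, adjusted p = 0.0099).

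MinE07 was compared with C36 to separate the EGFR aptamer from an aptamer of another sequence. In H3255, RIGI, IFIH1 and EIF2AK2 were lower with MinE07, by 0.30, 0.26 and 0.21 on the log2 scale. IRF3 fell by 0.12, and MAVS rose by 0.12 ± 0.03 (adjusted p = 0.018). These were 5 of 7 tested members, against 36.7% of all tested genes called in either direction, and the median change of the 7 was -0.12 beside -0.01 over all genes. In H1975, TICAM1 was called, 1 of 8 against 19.9% of all genes. In H820, 0 of 8 were called against 0.0364%, with EIF2AK2 alone at an unadjusted p under 0.05 (-0.13 ± 0.04), where 1396 of all 13753 tested genes were. In A549, limma called 0 of 9, against 0% of all genes, and no member had an unadjusted p under 0.05 while 1455 genes did.

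In H3255, the 3 MinE07 libraries had 4.11, 4.0 and 4.14 FPKM of RIGI, all below the lowest C36 library at 4.97, and the fall of 0.30 ± 0.06 had an adjusted p of 0.0024. IFIH1 had 1.34, 1.32 and 1.27 FPKM, below the lowest C36 library at 1.55, a fall of 0.26 ± 0.06 (adjusted p = 0.0086). EIF2AK2 had 5.60, 5.57 and 4.97 FPKM, below the lowest C36 library at 5.92 (adjusted p = 0.016). RIGI and IFIH1 were called without each single library and under each alternative run. The other calls were less stable: 2 members were called without C36 replicate 1 and 3 without C36 replicate 2, MinE07 replicate 2 or MinE07 replicate 3, beside 3946 to 4510 genes in all. IRF3 (24.2, 21.7 and 22.0 against 25.5, 24.3 and 24.3 FPKM, adjusted p = 0.042) was called without MinE07 replicate 1 and in none of the 8 fits without another library. TICAM1 had 3.27, 3.57 and 3.62 FPKM with MinE07 against 3.16, 3.01 and 3.10, higher without overlap by 0.15 ± 0.05 and just outside the threshold (adjusted p = 0.053).

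In H1975, TICAM1 had 7.55, 7.42 and 7.10 FPKM with MinE07 against 8.05, 8.29 and 7.76 with C36, and fell by 0.12 ± 0.04 (adjusted p = 0.048). The call was lost without C36 replicates 1 or 2, any 1 MinE07 library, or vehicle replicates 2 or 3 (adjusted p of 0.056 to 0.16), and with a replicate block (adjusted p = 0.071). DHX58 (0.24 ± 0.08, adjusted p = 0.052) and IFIH1 (0.17 ± 0.05, adjusted p = 0.055) were higher with MinE07 and not called. In A549 the C36 and MinE07 libraries of RIGI, at 53.8, 56.1 and 57.8 against 55.1, 53.3 and 59.3 FPKM, overlapped, with a change of 0.00 (95% confidence interval -0.16 to 0.16). TICAM1 was the 1 tested member whose libraries did not overlap there, lower with MinE07 by 0.12 ± 0.06 (-0.12, adjusted p = 0.47), where 10.1% of all tested genes were lower without overlap.

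**Figure D3:**
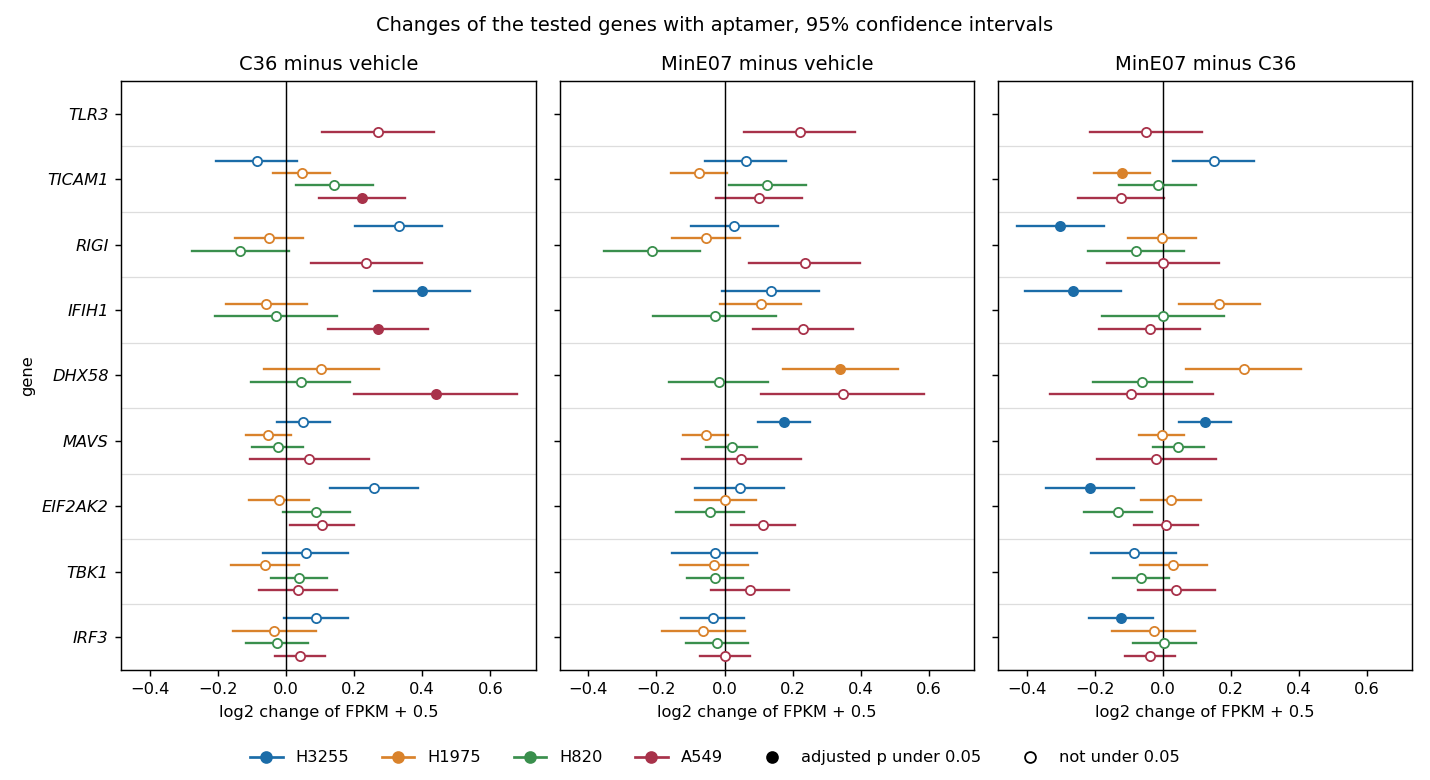
Log2 changes of FPKM + 0.5 with 95% confidence intervals for the 9 members other than ZBP1, in 3 panels by comparison, coloured by line, with filled points where the adjusted p was under 0.05. In H3255, RIGI, IFIH1 and EIF2AK2 lie to the right with C36 against vehicle (0.26 to 0.40) and to the left with MinE07 against C36 (-0.30 to -0.21).

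Whether a change differed among the 4 lines was tested in a single fit of all 36 libraries. For C36 minus vehicle, 4 of 9 members were called (RIGI, IFIH1, TICAM1 and EIF2AK2), against 7.30% of all 14572 tested genes. For MinE07 minus C36 the same count was 4 (IFIH1, TICAM1, EIF2AK2 and RIGI) against 29.9%, and for MinE07 minus vehicle 2 (RIGI and TLR3) against 34.7%. TLR3 entered this fit only through A549, since it averaged under 1 FPKM in each other line, where its precision is not known. RIGI had the smallest adjusted p of the members for C36 minus vehicle (0.0017): its change in H3255 exceeded that in H1975 by 0.38 ± 0.09 (adjusted p = 0.043) and that in H820 by 0.47 ± 0.09 (adjusted p = 0.0032), and H820 lay below A549 by 0.37 ± 0.09 (-0.37, adjusted p = 0.010). H3255 and A549 were not called as different in RIGI (0.09, 95% confidence interval -0.09 to 0.28).

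For IFIH1 with C36 (adjusted p = 0.0034), H3255 exceeded H1975 by 0.46 ± 0.10 (adjusted p = 0.019) and H820 by 0.43 ± 0.10 (adjusted p = 0.013). TICAM1 went the other way (adjusted p = 0.021), since its change with C36 was lower in H3255 than in A549 by 0.31 ± 0.07 (-0.31, adjusted p = 0.010). EIF2AK2 passed the joint test (adjusted p = 0.046) with no single pair called, the nearest being H3255 against H1975 (0.28 ± 0.07, adjusted p = 0.054). The joint call of EIF2AK2 was lost in 22 of 36 fits that left out 1 library (adjusted p of 0.021 to 0.13 over the 36) and, with all libraries, with no filter (adjusted p = 0.092), a filter at 0.1 FPKM (adjusted p = 0.058) or medians of ratios (adjusted p = 0.070). That of TICAM1 was lost too without H3255 C36 replicate 2, vehicle replicate 1 or vehicle replicate 3, where 2 members, RIGI and IFIH1, were called, beside 947 to 1004 genes in all. RIGI and IFIH1 were called in all 36 of those fits.

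For MinE07 minus C36, RIGI, IFIH1 and EIF2AK2 changed by -0.30, -0.26 and -0.21 in H3255. They changed by 0.00, 0.17 and 0.02 in H1975, by -0.08, 0.00 and -0.13 in H820, and by 0.00, -0.04 and 0.01 in A549. None of these genes was called outside H3255. H3255 minus H1975 was called for IFIH1 (-0.43 ± 0.10, adjusted p = 0.0021), RIGI (-0.30 ± 0.09, adjusted p = 0.021) and EIF2AK2 (-0.24 ± 0.07, adjusted p = 0.014). H3255 minus A549 was called for RIGI (-0.30 ± 0.09, adjusted p = 0.013) and EIF2AK2 (-0.22 ± 0.07, adjusted p = 0.015), while IFIH1 was not called there (-0.22 ± 0.10, adjusted p = 0.089). H3255 minus H820 was not called for RIGI (-0.22 ± 0.09, adjusted p = 0.081), IFIH1 (-0.26 ± 0.10, adjusted p = 0.053) or EIF2AK2 (-0.08 ± 0.07, adjusted p = 0.45). The joint call of RIGI for MinE07 minus C36 was lost without H3255 C36 replicate 1 (adjusted p = 0.10) or H3255 MinE07 replicate 2 (adjusted p = 0.070) and with no filter (adjusted p = 0.070). The change of TICAM1 was higher in H3255 than in H1975 (0.27 ± 0.07, adjusted p = 0.0075) and A549 (0.27 ± 0.07, adjusted p = 0.0043). For MinE07 minus vehicle, the change of RIGI was 0.24 in A549, 0.03 in H3255, -0.05 in H1975 and -0.21 in H820, none called within its line. The signed change in A549 was above that in H820 (H820 minus A549 -0.45 ± 0.09, adjusted p = 0.0035) and H1975 (-0.29 ± 0.09, adjusted p = 0.030), and that in H3255 was above that in H820 (0.24 ± 0.09, adjusted p = 0.046). The signed change of TLR3 was higher in H3255 than in H820 (0.34 ± 0.10, adjusted p = 0.018). In both lines TLR3 averaged under 1 FPKM and was too low for the test within the line. Pairs called in members that did not pass the joint test were DHX58 for MinE07 minus C36 (H3255 minus H1975, -0.48 ± 0.16), MAVS for MinE07 minus vehicle (H3255 minus H1975, 0.23 ± 0.07, adjusted p = 0.025) and TLR3 for C36 minus vehicle (H1975 minus A549, -0.36 ± 0.10). DHX58 in H3255 and TLR3 in H1975 averaged under 1 FPKM, were too low for the test within the line and entered this fit only through other lines. Pairs were planned only for members that passed the joint test, so no result is read from these. The count of 2 for MinE07 minus vehicle was 6 without A549 vehicle replicate 1, beside 5654 genes in all. It was 1 (RIGI) without H3255 MinE07 replicate 2, H3255 vehicle replicate 2, H820 MinE07 replicate 3 or H820 vehicle replicate 2, beside 4642 to 4839 genes in all.

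Members too low to be tested within a line are given by their values. TLR3 in H3255 had 0.334, 0.254 and 0.309 FPKM with vehicle, 0.432, 0.339 and 0.354 with C36 and 0.401, 0.539 and 0.459 with MinE07, so that both aptamer groups lay above vehicle. With genes down to a mean of 0.1 FPKM tested, TLR3 was higher with MinE07 than with vehicle by 0.27 ± 0.08 in H3255 (adjusted p = 0.024), a call lost with no filter (adjusted p = 0.055), and with C36 by 0.13 ± 0.08 (adjusted p = 0.49). DHX58 in H3255 had 0.760, 0.537 and 0.306 FPKM with C36, 0.358, 0.360 and 0.365 with MinE07 and 0.241, 0.405 and 0.296 with vehicle. Its C36 libraries overlapped both other groups, and no change was called at that filter. ZBP1 in A549 had 0.463, 0.629 and 0.477 FPKM with C36, above 0.415, 0.263 and 0.350 with MinE07 and 0.293, 0.207 and 0.101 with vehicle. At that filter it was higher with C36 than with vehicle by 0.55 ± 0.11 (adjusted p = 0.039), a call lost with no filter on mean FPKM (adjusted p = 0.12).

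The 10 pathway lists hold 84 genes beside the members. With C36 against vehicle, 19 of 73 tested list genes were called in A549, all higher, beside 3.62% of all genes called higher. In H3255, 3 of 60 were called, all higher, beside 0.305% of all genes called: ZC3HAV1, an antiviral RNA-binding protein (0.29 ± 0.05, adjusted p = 0.038), the stress transcription factor ATF3 (0.61 ± 0.09, adjusted p = 0.038) and IRF9, the DNA-binding partner of STAT2 (0.71 ± 0.11, adjusted p = 0.047). In H1975 1 of 72 was called, IFIT3 (-0.24 ± 0.04, adjusted p = 0.042), beside 0.233% of all genes. In H820 2 of 69 were called, a share near the 2.85% of all genes: TRAF3 (0.16 ± 0.03, adjusted p = 0.028), an adaptor of MAVS, and OASL (-0.37 ± 0.08, adjusted p = 0.042), an oligoadenylate synthetase-like cofactor of RIGI. The lists were drawn up with earlier results of these data known.

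In A549, the called list genes lay below and around the receptors. PPP1R15A, which recruits the phosphatase that reverses the action of EIF2AK2 on eIF2, rose with C36 by 1.12 ± 0.10 (27.95 ± 0.54 to 61.6 ± 9.5 FPKM, adjusted p = 0.0020), and DDIT3, a transcription factor of the same stress response, by 0.57 ± 0.06 (adjusted p = 0.0047). With ATF3 they made 3 of 8 genes of that list, with a median of 0.05 over the list. OASL (0.54 ± 0.08, adjusted p = 0.0082) and OAS2 (0.47 ± 0.08, adjusted p = 0.012) were 2 of 3 called of 6 genes of their list (median 0.15). IFIT2 (0.87 ± 0.11, adjusted p = 0.0073) and IFIT3 (0.41 ± 0.08, adjusted p = 0.023) were 2 of 3 called of 9 other RNA-binding sensors and effectors (median 0.05). Among the RIG-I-like receptor regulators, CYLD, a deubiquitinase that restrains RIGI (0.31 ± 0.05, adjusted p = 0.013), and ZC3HAV1 (0.27 ± 0.04, adjusted p = 0.0083) were the 2 called of 11 (median 0.12). The median over all tested genes was 0.01.

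The transcripts that IRF3 and NF-kB drive were measurable in A549 and near 0 elsewhere. IFNB1, the gene of interferon beta, had 5.02, 4.71 and 4.50 FPKM in the A549 vehicle libraries, 9.71, 13.6 and 15.9 with C36 and 9.79, 8.25 and 8.86 with MinE07. IFNL1, of the interferon lambda family, had 12.9, 9.71 and 9.02 with vehicle, 23.2, 28.7 and 33.4 with C36 and 17.9, 17.8 and 21.6 with MinE07. CXCL10, a chemokine, had 7.62, 4.05 and 3.85, then 9.65, 11.8 and 14.5, then 8.82, 9.17 and 9.76 FPKM. In each of the 3 genes both aptamer groups lay above vehicle without overlap. All 6 genes of the list (IFNB1, IFNL1, IFNL2, IFNL3, CCL5 and CXCL10) were called higher with C36 than with vehicle, with a median of 1.34, where the members' median in A549 was 0.22. The 2 largest were IFNL1 (1.39 ± 0.17, adjusted p = 0.0079) and IFNL3 (1.38 ± 0.13, adjusted p = 0.0042), but IFNL2 and IFNL3 are near-identical copies between which reads may be split. With MinE07 all 6 were higher than vehicle (median 0.81) and 0 were called by limma, 5 having an unadjusted p under 0.05, as did 1865 of all 13425 tested genes. All 6 were lower with MinE07 than with C36 (median -0.52), 0 called and 5 at an unadjusted p under 0.05, where 1455 of all tested genes were.

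**Figure D4:**
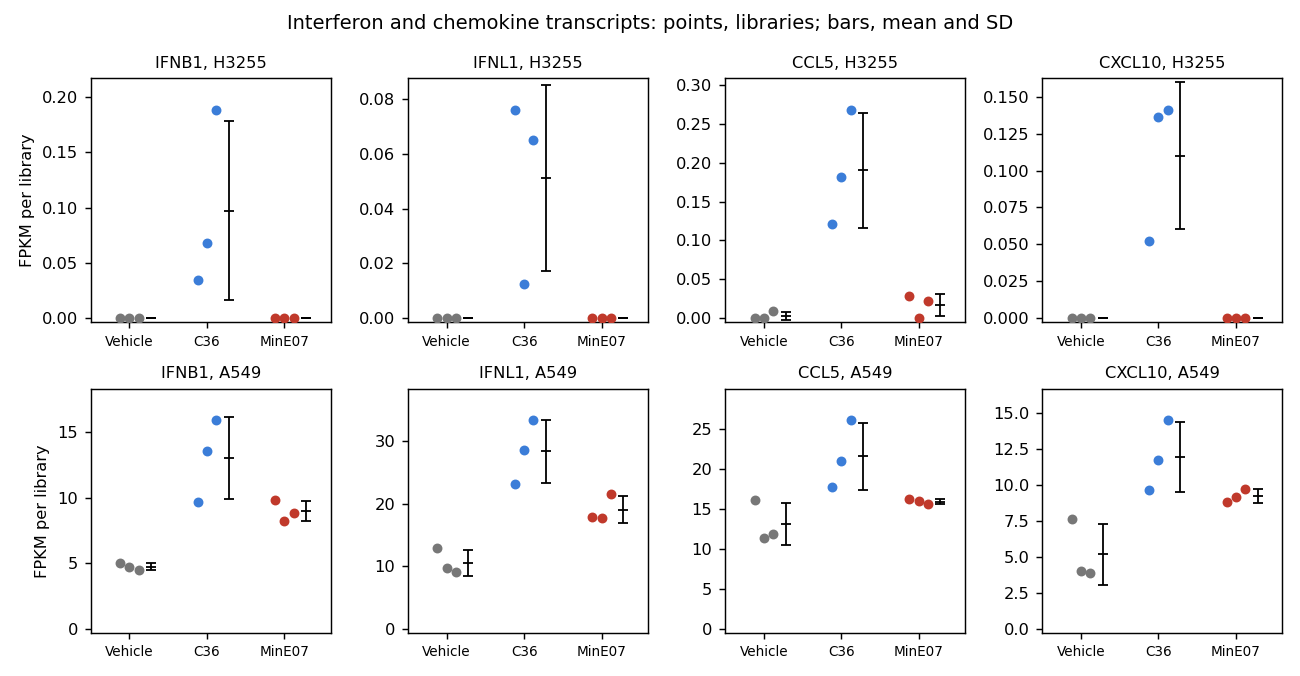
FPKM per library of IFNB1, IFNL1, CCL5 and CXCL10 by treatment in H3255 (top, values under 0.3) and A549 (bottom), with points for libraries and bars for mean and SD of 3; each panel has its own axis from 0. In A549 the C36 libraries are the highest for IFNB1 in 2 of 3 cases and for IFNL1 and CCL5 in all, and in H3255 values above 0 for IFNB1, IFNL1 and CXCL10 occur only with C36.

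In H3255 the interferon genes were too low for the test, and the following were chosen after their values were seen. IFNB1 was listed at 0 in all 3 vehicle and all 3 MinE07 libraries and had 0.034, 0.068 and 0.189 FPKM with C36. CXCL10 was likewise listed at 0 in those 6 libraries and had 0.052, 0.136 and 0.141 FPKM with C36. Low as they are, the C36 libraries of both genes stood apart from the other 6. IFIT2 had 1.53, 1.46 and 1.64 FPKM with C36, 0.336, 0.357 and 0.254 with MinE07 and 0.149, 0.193 and 0.202 with vehicle in H3255. OASL had 1.06, 0.867 and 1.13 FPKM with C36 against at most 0.037 with MinE07 and 0.051 with vehicle. IFIT2 and OASL were above the other treatments in every C36 library, but they were picked for their values. Of their lists, all 4 tested oligoadenylate synthetase genes (median 0.13) and all 5 other tested sensors and effectors (median 0.03) were higher with C36 than with vehicle. None of these was called, and the median over all tested genes was 0.02.

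With MinE07 against C36 in H3255, 14 of 60 tested list genes were called higher and 25 lower, where 36.7% of all genes were called. Among the genes called lower were OAS1 (-0.79 ± 0.14, adjusted p = 0.0021), OAS3 (-0.51 ± 0.07, adjusted p = 2.9e-04), IRF7 (-0.35 ± 0.10, adjusted p = 0.027), the DNA sensor IFI16 (-0.40 ± 0.07, adjusted p = 0.0013) and IRF9 (-1.12 ± 0.11, adjusted p = 7.7e-05). IKBKG, the NEMO subunit through which NF-kB is activated (-0.49 ± 0.05, adjusted p = 6.9e-05), CASP8, the protease that restrains death by RIPK3 (-0.45 ± 0.04, adjusted p = 1.7e-05), ATF3 (-0.95 ± 0.09, adjusted p = 3.5e-05) and PPP1R15A (-0.31 ± 0.04, adjusted p = 1.6e-04) were lower too. The helicases DHX9 (-0.20 ± 0.03, adjusted p = 8.2e-04) and DDX3X (-0.17 ± 0.03, adjusted p = 0.0018) fell less. STAT2 rose (0.52 ± 0.04, adjusted p = 4.4e-06), as did RNF135, a ubiquitin ligase that activates RIGI (0.38 ± 0.05, adjusted p = 2.4e-04), NLRX1, a mitochondrial regulator (0.21 ± 0.05, adjusted p = 0.012), and in the endosomal list UNC93B1 (0.30 ± 0.06, adjusted p = 0.0021) and SIDT2, a lysosomal RNA transporter (0.30 ± 0.06, adjusted p = 0.0040). That endosomal list had 4 called higher and 2 lower of 6 tested, with a median of 0.21 beside -0.01 over all genes.

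In H1975, 9 of 72 list genes were called higher and 7 lower for MinE07 minus C36, where 19.9% of all genes were. SIDT2 rose there as well (0.29 ± 0.05, adjusted p = 0.0046), and so did OAS1 (0.25 ± 0.07, adjusted p = 0.026), the adaptor TRADD (0.19 ± 0.04, adjusted p = 0.012), STING1 (0.17 ± 0.05, adjusted p = 0.026), JAK1 (0.23 ± 0.03, adjusted p = 0.0017) and IRF9 (0.22 ± 0.07, adjusted p = 0.039). MLKL, the pore-forming effector of RIPK3 (-0.22 ± 0.05, adjusted p = 0.012), the DNA sensor CGAS (-0.22 ± 0.05, adjusted p = 0.012), the helicases DHX33 (-0.19 ± 0.04, adjusted p = 0.015) and DHX9 (-0.12 ± 0.03, adjusted p = 0.015), and EIF2S1, the substrate of EIF2AK2 (-0.14 ± 0.03, adjusted p = 0.0089), fell. OAS1 and IRF9 were thus called in both L858R lines with opposite signs, lower in H3255 and higher in H1975; the difference between the lines was not tested for these list genes. In H820 and A549, 0 of 69 and 0 of 73 list genes were called by limma for MinE07 minus C36.

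Against vehicle, MinE07 gave 16 list genes called higher and 14 lower of 60 in H3255, beside 38.6% of all genes called, and 13 higher and 10 lower of 72 in H1975, beside 23.7%. TRIM25, the ubiquitin ligase that activates RIGI, rose in H3255 (0.38 ± 0.04, adjusted p = 2.0e-05), as did RNF135 (0.39 ± 0.05, adjusted p = 1.7e-04), SIDT2 (0.36 ± 0.06, adjusted p = 0.0011) and RNASET2, a lysosomal ribonuclease (0.35 ± 0.06, adjusted p = 8.1e-04). CASP8 fell by 0.53 ± 0.04 (-0.53, adjusted p = 4.6e-06). In H1975, SIDT2 (0.37 ± 0.05, adjusted p = 0.0012), PLD3 (0.24 ± 0.04, adjusted p = 0.0024) and NLRX1 (0.26 ± 0.03, adjusted p = 9.0e-04) rose, and ABCE1, a ribosome recycling factor (-0.27 ± 0.04, adjusted p = 9.4e-04), CGAS (-0.29 ± 0.05, adjusted p = 0.0029) and EIF2S1 (-0.22 ± 0.03, adjusted p = 8.9e-04) fell. In H820, 1 of 69 list genes was called, TRAF3 (0.14 ± 0.03, adjusted p = 0.037), beside 3.02% of all genes.

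The genes whose levels were most like each member over the 36 libraries were found by Pearson's r of log2(FPKM + 0.5) among 14572 genes. EIF2AK2 was most like IFI6, an interferon-inducible gene (r = 0.997), and EHBP1 (r = 0.996), TLR3 most like PARP14 (r = 0.994) and PGD (r = 0.993), and DHX58 most like TSPYL2 (r = 0.967) and the DNA sensor IFI16 (r = 0.963). RIGI was most like SLC3A2 (r = 0.996) and RAB10 (r = 0.995), and IFIH1 most like SNAP25 (r = 0.996) and VSIG10L (r = 0.995). For TICAM1 they were ADO (r = 0.984) and BCL2L13 (r = 0.982), for MAVS LOC124904632 (r = 0.992) and RESF1 (r = 0.991), for TBK1 OSGIN2 (r = 0.989) and HAUS6 (r = 0.986), and for IRF3 ABCB6 (r = 0.988). The 36 libraries come from 4 lines, so these values mostly describe which line is high, and they carry no test.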

How the data were processed

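RNA was extracted after 24 h, and poly-A RNA was sequenced from both ends of each fragment with a stranded kit, per the labels' protocols. The authors deposited 1 file of FPKM per library. Per the submitters' processing notes, HISAT2 and Cuffdiff were used with GRCh38.p12 and hg38; their versions, roles, annotation and strand setting were not stated. Of 68271 entries, 1874 without a name and 31 with repeated names were left out (at most 0.0028% and 0.0025% of a library's summed FPKM), which left 66366 genes. Values were analysed as log2(FPKM + 0.5) with limma 3.58.1 under R 4.3.3 (robust moderation through statmod 1.5.0, variance trend on). A gene entered a fit where its FPKM averaged 1 or more. Fits used the 9 libraries of a line, the 12 vehicle libraries, or all 36 for differences among lines (an F test on each change, then pairs of lines). Tests were two-sided, with Benjamini-Hochberg adjustment over all genes tested and calls at an adjusted p under 0.05. The series record states that the experiments were biologically independent.

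Named were all 10 members, at most the 2 called genes with the largest absolute change per list and comparison, the highest and lowest list genes for levels, and the 2 genes most like each member; a few items that these rules name are not reported here. The members and lists were chosen with earlier results of these data known. Gene positions are from GENCODE on GRCh38. Alternatives covered the pseudocount, the filter, scaling, the replicate block, moderation, a joint fit, gene copies and leaving out each library. Python 3.11.15, pandas 2.3.3, numpy 2.4.6 and matplotlib 3.10.9 were used.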

Additional observations from a re-analysis of the deposited data

Results flagged for a closer look

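The following results were singled out because the change of a gene differed among the 4 cell lines by a joint test over all 36 libraries at once. For C36 minus vehicle the adjusted p was 0.0017 for RIGI (0.001677), 0.0034 for IFIH1 (0.003361), 0.0206 for TICAM1 (0.02062) and 0.0457 for EIF2AK2. For MinE07 minus C36 it was 0.00792 for IFIH1 (0.007918), 0.00833 for TICAM1 (0.008327), 0.0157 for EIF2AK2 (0.01573) and 0.0258 for RIGI (0.02575). For MinE07 minus vehicle it was 0.00199 for RIGI (0.001989) and 0.0273 for TLR3 (0.02727). TLR3 passed the filter only through A549 and averaged under 1 FPKM in H3255, H1975 and H820. RIGI was the 1 member called in all 3 comparisons, which share libraries. For MinE07 minus C36 that call was lost without H3255 C36 replicate 1 or H3255 MinE07 replicate 2. The joint call of EIF2AK2 for C36 minus vehicle was lost in 22 of 36 fits without 1 library, that of TICAM1 in 3, and that of TLR3 for MinE07 minus vehicle in 4.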

How the results depend on the processing

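Under alternatives other than leaving out a library, 162 counts of called members stayed within 1.5 times the reported count and 25 did not. In H3255, MinE07 minus C36 gave 3 called members with no filter (5 reported). MinE07 minus vehicle gave 2 with a filter at 0.1 FPKM and 2 in the joint fit (1 reported). C36 minus vehicle (1 reported) gave 0 with no filter, a filter at 0.1 FPKM, a replicate block or no trend or robust moderation, 2 with a pseudocount of 0.1, with medians of ratios or without gene copies, and 3 in the joint fit. Over all genes that comparison gave 6 with no filter, 17 with a filter at 0.1 FPKM or the block, 139 with medians of ratios and 369 in the joint fit. In H1975, MinE07 minus C36 (1 reported) gave 0 with no filter, a filter at 0.1 FPKM, the block or the joint fit and 2 with medians of ratios or without moderation; MinE07 minus vehicle gave 0 with no filter. In A549, C36 minus vehicle (3 reported) gave 0 with no filter, the block or no moderation, 1 with a filter at 0.1 FPKM and 5 in the joint fit. Over all genes the last 2 settings gave 636 and 2260. MinE07 minus vehicle in A549 gave 2 in the joint fit, beside 659 genes in all. The test among lines for MinE07 minus vehicle gave 1 with no filter (2 reported). The cause was not tested.

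Leaving out 1 library gave 2 to 6 called members for H3255 MinE07 minus C36, 0 to 1 for C36 minus vehicle there, 0 to 1 for H1975 MinE07 minus C36, 1 to 2 for H1975 MinE07 minus vehicle, 0 to 4 for A549 MinE07 minus vehicle and 0 to 5 for A549 C36 minus vehicle. Among lines it gave 1 to 6 for MinE07 minus vehicle and 2 to 5 for C36 minus vehicle. Over all genes, A549 C36 minus vehicle gave 103 to 1065 calls. Same-numbered libraries varied together little (r from -0.155 to 0.243, over 0.1 in 8 of 36 pairs, most of them in H3255 and H820). Some pairs with different numbers also exceeded 0.1, so these values do not settle whether replicates were paired. The block moved the 3 counts given above and no other by over 1.5 times.

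Uncalled differences that changed sign were, with medians of ratios, RIGI in A549 for MinE07 minus C36 (-0.0056) and, in vehicle, H3255 minus H1975 for TBK1 (0.076) and IRF3 (0.057). Leaving out a library reversed RIGI in H3255 for MinE07 minus vehicle (-0.030 to 0.068), RIGI in A549 for MinE07 minus C36 (-0.043 to 0.033), IFIH1 in H820 for C36 minus vehicle (-0.10 to 0.020), and in vehicle TBK1 for H3255 minus H1975 (-0.090 to 0.0041) and EIF2AK2 for H1975 minus H820 (-0.032 to 0.0063). Without counts, the precision at low FPKM, as for ZBP1 or DHX58 in H3255, is not known.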
